A study of Saccharomyces cerevisiae with 22 samples.

Results

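The genes described here are 34 genes of *S. cerevisiae* that serve the synthesis of histidine, lysine, aromatic and branched-chain amino acids, or that are tied to the control of this synthesis. They were found by gene symbol in the probe annotation of a 2-colour oligonucleotide array, out of 5311 named genes and 6373 features in all. The rule held no measured value, but the genes were chosen with earlier results of these data known, so the choice was not blind to them. Of the 34, *LYS2* is an auxotrophic marker of the common laboratory strains and was kept apart, which left 33 genes for all counts and medians. The 33 comprise 6 genes of histidine synthesis, 6 of lysine, 4 of tryptophan, 4 of the shared aromatic pathway, 3 of leucine, 5 of isoleucine and valine, 2 branched-chain aminotransferases, and *GCN4*, *PCL5* and *ICY2*, which has the current symbol *ATG41*.

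Expression was profiled in mutants of Ctk1p, the kinase of Ser2 in the C-terminal domain (CTD) of RNA polymerase II, and of factors that bind the CTD or act in transcription termination and RNA decay. Each of 22 arrays held RNA of a mutant in 1 dye and RNA of a wild type reference pool in the other, which gave 12 profiles. In synthetic complete (SC) medium these were *set2*Δ (the H3K36 methyltransferase), *eaf3*Δ and *rco1*Δ (subunits of the Rpd3S deacetylase), *rtt103*Δ (a CTD-binding termination factor), *rrp6*Δ and *lrp1*Δ (nuclear exosome), *ctk1*Δ, *sen1-1* (the helicase of the Nrd1-Nab3-Sen1 complex), *pcf11-2* and *pcf11-ts2* (alleles of a cleavage factor subunit). In rich medium (YPD) they were *ctk1*Δ and *rpb1-S2A*, in which Ser2 of the CTD repeats is replaced by alanine. The *sen1* and *pcf11* alleles are temperature-sensitive and were grown at a temperature that permits growth, so they may keep part of their function. According to the methods YPD was chosen because *rpb1-S2A* grew poorly in SC. The reference was wild type RNA from 1 large culture, and its medium is not given in the labels.

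The labels name the background BY4742 for every strain. In *lrp1*Δ, *rrp6*Δ, *eaf3*Δ, *rco1*Δ, *rtt103*Δ and *set2*Δ the a-specific genes had median log2 ratios between −0.05 and 0.01. In *sen1-1*, both *pcf11* strains and *rpb1-S2A*, all 7 a-specific genes were higher than in the reference (medians 3.04 to 3.41), all 4 alpha-specific genes were lower (medians −4.82 to −4.21), and *MET17* was lower by log2 values of −4.90 to −3.99. These 4 strains thus went against the labelled mating type, although the label of *rpb1-S2A* itself adds matA. In their ratios to the reference, the mutation and the strain background cannot be told apart. According to the methods the authors set the *sen1* and *pcf11* mutants against wild type strains of mating type a, which are not among these samples. In *ctk1*Δ, 1 of 7 a-specific genes was higher in either medium and *MET17* was not changed. Of the 4 alpha-specific genes, 2 were higher in *ctk1*Δ in SC (median 0.71) and 1 in YPD (median 0.50). In *eaf3*Δ 1 was higher (median 0.47), in *lrp1*Δ 1 was lower (median −0.01), and none changed in *set2*Δ, *rco1*Δ, *rtt103*Δ or *rrp6*Δ. RNA was extracted by a standard or a high-throughput protocol. The labels name the standard protocol for both channels of the *set2*Δ, *lrp1*Δ, *rrp6*Δ and *rtt103*Δ arrays, and the high-throughput protocol for both channels of the *sen1-1* and *pcf11* arrays. For *eaf3*Δ, *rco1*Δ and *ctk1*Δ in SC the mutant was extracted by the high-throughput and the reference by the standard protocol, while for *ctk1*Δ in YPD and array a of *rpb1-S2A* it was the other way round. Array b of *rpb1-S2A* had the high-throughput protocol in both channels.

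Yeast makes all the amino acids of its proteins, and the enzymes for histidine, lysine, tryptophan and the branched-chain amino acids are induced together when any of them runs short. The activator of this general amino acid control is Gcn4p, which binds the promoters of these genes and whose own synthesis is set mainly at translation through short upstream reading frames in its mRNA. Gcn4p is short-lived, since the cyclin Pcl5p directs the kinase Pho85p to it and marks it for degradation, and *PCL5* is itself a Gcn4p target. Single pathways have activators of their own, Lys14p for lysine, Leu3p for the branched-chain amino acids and Bas1p with Pho2p for histidine and purines.

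The 2 spots of each gene were above background in both channels on every array, and none was saturated. Mutant channels had a median signal between 272 and 1541 over a median background of 40 to 64. Replicate arrays correlated over all features with r between 0.529 (*set2*Δ) and 0.967 (*ctk1*Δ in SC), and over the 33 genes with r between 0.472 and 0.973 in the same strains. The deleted gene itself had a log2 ratio between −4.06 and −2.82 in the deletion strains in SC, and −2.46 for *CTK1* in YPD. Every ratio is mutant over reference on the log2 scale, and the words rise, fall and change are kept for genes where limma's Benjamini-Hochberg adjusted p over all 6373 features was under 0.05 and the fold change was over 1.7 (a log2 ratio beyond 0.77). There were 2 independent cultures per profile, each on 1 array with the dyes swapped, but only 1 array for each *pcf11* allele, from a single culture, whose spread was taken from the other strains. The reference counts as 1 control sample, so its own spread is not part of any p-value.

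The changes among the 33 genes lay in a small set of them, and the share of all features called is given beside the count of each profile. Over the 12 profiles there were 18 changes, 16 rises and 2 falls, in 9 genes: *HIS4*, *HIS5*, *HIS6*, *LYS1*, *LYS20*, *LEU4*, *BAT2*, *PCL5* and *ICY2*. The other 24 genes stayed below the fold minimum in every profile. In *ctk1*Δ in SC 5 of the 33 genes rose and 0 fell, where 7.28% of all features were called higher and 2.84% lower. In *sen1-1* 1 gene rose, where 5.21% of all features were higher and 1.29% lower. In *pcf11-2* 3 rose, against 5.54% higher and 2.09% lower over all features, and in *pcf11-ts2* 2 rose, against 3.17% and 0.863%. In *rrp6*Δ 1 gene fell, against 1.63% higher and 0.596% lower. In YPD, 2 genes rose in *ctk1*Δ, against 6.79% higher and 2.7% lower, and 3 rose and 1 fell in *rpb1-S2A*, against 7.23% and 5.16%.

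No member changed in *set2*Δ, where 1.35% of all features were higher and 0.267% lower, nor in *eaf3*Δ (0.549% and 0.235%), *rco1*Δ (0.769% and 0.141%), *rtt103*Δ (0.126% and 1.15%) or *lrp1*Δ (0.973% and 0.282%). In these 5 profiles 11 to 15 of the 33 genes had an unadjusted p under 0.05 in limma, where 26.8% to 37.4% of all features did. The share of the 33 genes called in either direction was 15.2% in *ctk1*Δ in SC and 12.1% in *rpb1-S2A*, that is 5 and 4 genes, and at most 9.09% in the other profiles.

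**Figure D1:**
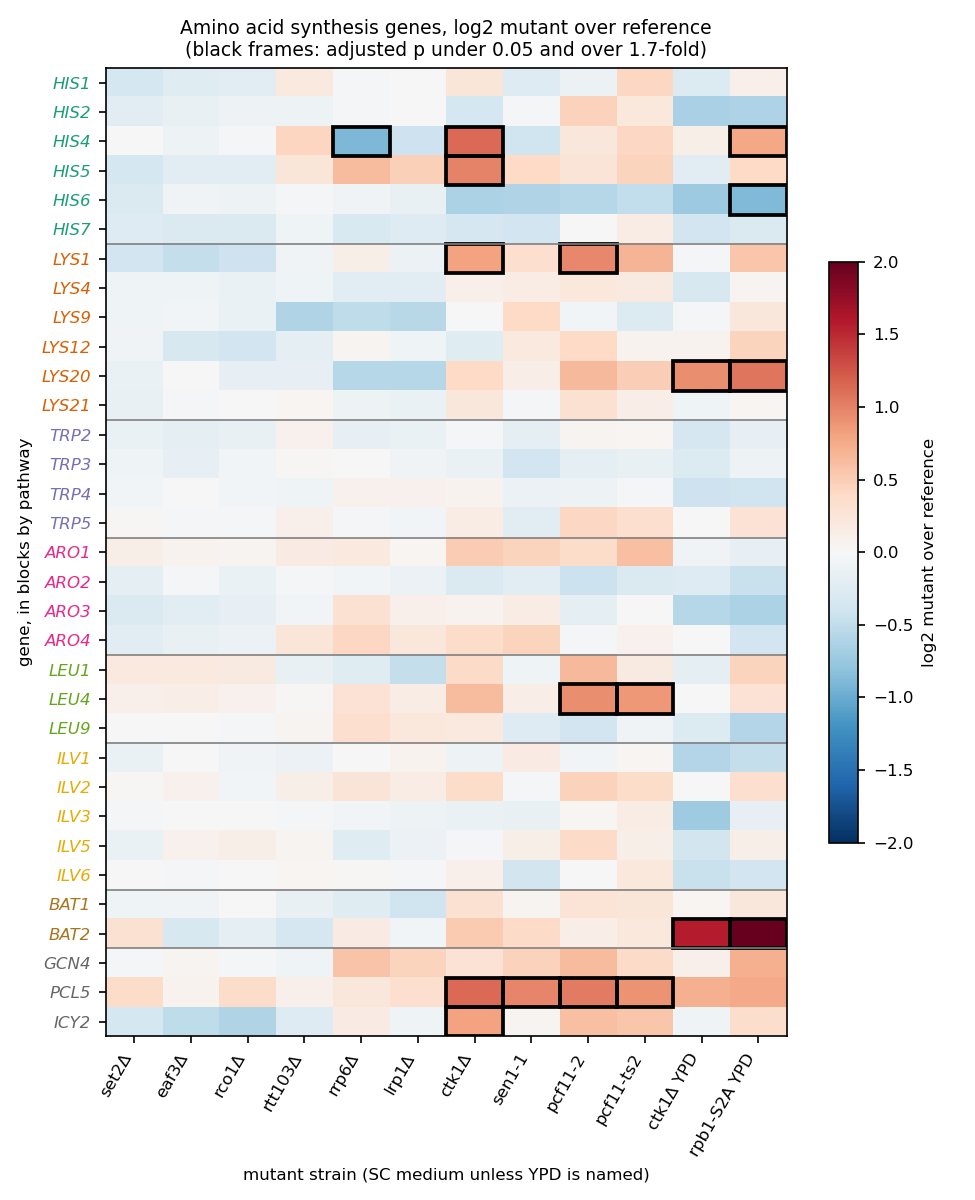
Log2 mutant over reference of the 33 genes (rows, in blocks by pathway) in the 12 profiles (columns), in colour from −2 to 2, with black frames around the 18 changes. Most frames lie in *ctk1*Δ, the *pcf11* alleles and the 2 YPD profiles, where 3.17% to 7.28% of all features were higher. The *TRP*, *ARO* and *ILV* blocks hold none.

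Among the genes of histidine synthesis, *HIS4* and *HIS5* rose in *ctk1*Δ in SC and the other 4 genes did not pass there. *HIS4*, a trifunctional enzyme that acts early in the pathway and at its end, had log2 ratios of 1.22 and 1.04 on arrays a and b of *ctk1*Δ in SC. It had 0.80 and 0.74 on the arrays of *rpb1-S2A* and −0.90 and −0.89 on those of *rrp6*Δ. The arrays of *set2*Δ, *eaf3*Δ and *rco1*Δ ranged from −0.18 to 0.08. The remaining arrays had 0.40 and 0.44 in *rtt103*Δ, −0.49 and −0.34 in *lrp1*Δ, −0.38 and −0.42 in *sen1-1*, 0.23 in *pcf11-2*, 0.40 in *pcf11-ts2*, and 0.21 and 0.02 in *ctk1*Δ in YPD. The rise was 2.19-fold in *ctk1*Δ (log2 1.13, standard error 0.07, limma adjusted p = 3.22e-08) and 1.71-fold in *rpb1-S2A* (adjusted p = 6.28e-07), and the fall in *rrp6*Δ was 1.86-fold (adjusted p = 7.22e-07). The rise in *rpb1-S2A* lay just beyond the fold minimum and was lost without array a and with median centring in place of loess, at a log2 ratio of 0.73 in both, and with genes centred on their median over the profiles (0.71).

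The reference channel of *HIS4* was not the same on all arrays. With each channel centred on its own median, its log2 signal in the reference channel was 2.27 on the *lrp1*Δ arrays, 2.22 on those of *rtt103*Δ and 1.76 on those of *rrp6*Δ, but 0.87 on those of *ctk1*Δ in SC and 0.12 on those of *sen1-1*. This range of 2.16 was wider than that of 98.3% of all features, whose median range was 0.59. In the mutant channel *HIS4* had 1.88 in *ctk1*Δ in SC, 2.02 in *eaf3*Δ and 1.88 in *set2*Δ, so the mutant signal of *ctk1*Δ was near that of strains whose ratio was close to 0. Differences of the *HIS4* ratio between profiles thus held differences of the reference channel, whose part in the ratio of each mutant was not tested. For *HIS5* the reference channel had a range of 0.36 over the profiles, narrower than for most features (13.0% had a smaller one).

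*HIS5*, the histidinol-phosphate aminotransferase, had 1.00 and 0.99 on the *ctk1*Δ arrays in SC and −0.29 and −0.16 on those in YPD. It had 0.56 and 0.71 in *rrp6*Δ, 0.48 and 0.47 in *lrp1*Δ, 0.47 and 0.33 in *sen1-1*, 0.42 and 0.38 in *rpb1-S2A*, 0.23 and 0.27 in *rtt103*Δ, 0.25 in *pcf11-2* and 0.45 in *pcf11-ts2*. On the 6 arrays of *set2*Δ, *eaf3*Δ and *rco1*Δ it lay between −0.43 and −0.14. No array of another strain reached the level of the *ctk1*Δ arrays in SC, and how many other features behave so was not counted. The only profile past the threshold was *ctk1*Δ in SC, where 7.28% of all features were higher, with a rise of 1.00 on the log2 scale (standard error 0.06, limma adjusted p = 3.69e-08). With every gene centred on its median over the 12 profiles, this rise was 0.68 and did not pass. *HIS6*, an isomerase in the middle of the pathway, fell 1.85-fold in *rpb1-S2A* (−0.97 and −0.81, adjusted p = 5.59e-07), and with this centring it had −0.48 and did not pass. Its log2 ratio was negative in all 12 profiles, from −0.03 in *rtt103*Δ to −0.72 in *ctk1*Δ in YPD and −0.89 in *rpb1-S2A*. The first enzyme *HIS1* ranged from −0.35 to 0.41, the amidotransferase-cyclase *HIS7* from −0.39 to 0.14, and the phosphatase *HIS2* from −0.65 in *ctk1*Δ in YPD to 0.46 in *pcf11-2*. In *ctk1*Δ in SC *HIS1* had 0.25, *HIS2* −0.35, *HIS6* −0.63 and *HIS7* −0.34, none of which passed.

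**Figure D2:**
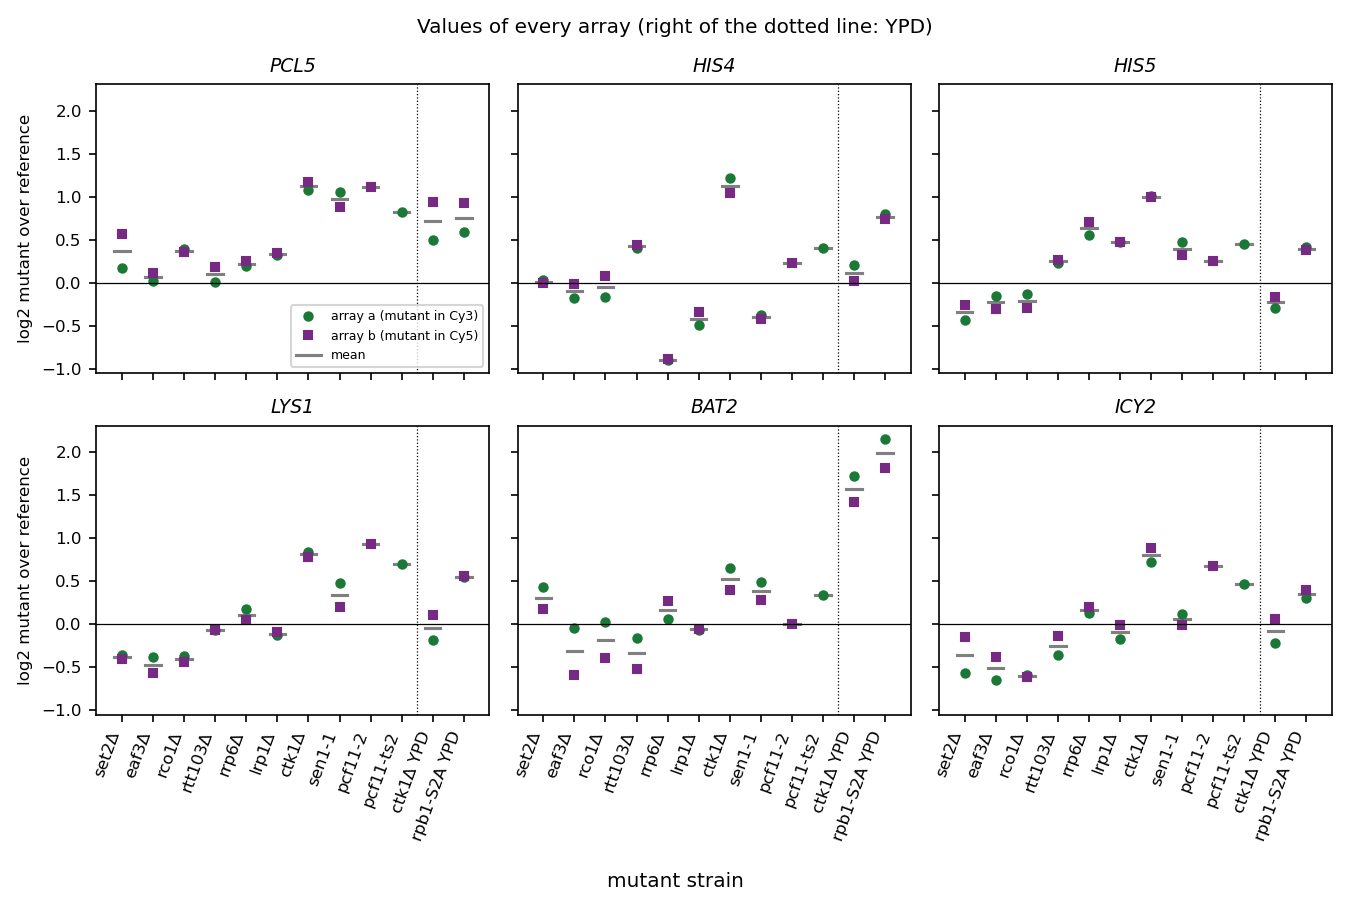
Log2 mutant over reference on every array for 6 genes, with array a as circles, array b as squares, and the mean of a profile as a grey bar. The *ctk1*Δ arrays in SC lie at or above 0.73 for every gene but *BAT2*, which is highest on the 4 YPD arrays (1.43 to 2.16).

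The 6 lysine genes other than *LYS2* showed a rise of *LYS1* in SC and of *LYS20* in YPD. *LYS1*, the saccharopine dehydrogenase that forms lysine in the last step, had 0.84 and 0.78 on the *ctk1*Δ arrays in SC, 0.94 in *pcf11-2* and 0.70 in *pcf11-ts2*. It had 0.54 and 0.56 in *rpb1-S2A*, 0.48 and 0.20 in *sen1-1*, 0.17 and 0.05 in *rrp6*Δ, −0.19 and 0.10 in *ctk1*Δ in YPD, −0.13 and −0.10 in *lrp1*Δ, and −0.07 and −0.07 in *rtt103*Δ. The 6 arrays of *set2*Δ, *eaf3*Δ and *rco1*Δ were the lowest, between −0.57 and −0.36. *LYS1* rose 1.76-fold in *ctk1*Δ (log2 0.81, standard error 0.07, limma adjusted p = 7.65e-07) and 1.95-fold in *pcf11-2* (log2 0.96, standard error 0.10, adjusted p = 2.01e-05).

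*LYS20*, 1 of 2 homocitrate synthases that open the pathway, had 1.11 and 0.77 on the *ctk1*Δ arrays in YPD and 1.15 and 1.01 on those of *rpb1-S2A*. Its rise was 1.91-fold in *ctk1*Δ (adjusted p = 1.30e-07) and 2.11-fold in *rpb1-S2A* (adjusted p = 2.42e-08). Its isozyme *LYS21* had fitted log2 ratios of −0.09 and 0.03 in the same profiles and ranged from −0.15 to 0.30 over all 12. The 2 isozymes are close in sequence, so their probes may share signal. *LYS20* was lowest in *lrp1*Δ (−0.57) and *rrp6*Δ (−0.56), the 2 exosome strains, where *LYS9*, a saccharopine-forming reductase, had −0.55 and −0.50. *LYS9* was lowest in *rtt103*Δ (−0.61) and highest in *sen1-1* (0.40). The homoaconitase *LYS4* ranged from −0.32 to 0.21 and the homoisocitrate dehydrogenase *LYS12* from −0.38 to 0.44.

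*LYS2*, the aminoadipate reductase, was several-fold above the reference in *ctk1*Δ in both media, in *rpb1-S2A*, in *sen1-1* and in both *pcf11* alleles. Its log2 ratio was 3.31 and 2.94 on the *ctk1*Δ arrays in SC, 2.28 and 1.83 on those in YPD, 3.23 and 2.18 in *rpb1-S2A*, 2.91 and 2.73 in *sen1-1*, 2.90 in *pcf11-2* and 3.06 in *pcf11-ts2*. In the other 6 profiles it lay between −0.19 and 0.06, with single arrays from −0.22 to 0.14. The 2 sets of profiles were sorted by these *LYS2* values, so their separation is not a test. In the reference channel the log2 signal of *LYS2* was below the channel median in every profile, from −1.75 to −0.64. *LYS2* rose in *ctk1*Δ in both media, where the a-specific and alpha-specific genes did not show the pattern of *sen1-1*, the *pcf11* alleles and *rpb1-S2A*. In the 4 profiles in which *LYS1* or *LYS20* rose, *LYS2* had fitted ratios of 3.13 (*ctk1*Δ in SC), 3.02 (*pcf11-2*), 2.06 (*ctk1*Δ in YPD) and 2.71 (*rpb1-S2A*). The part of the *LYS2* genotype in the values of the other *LYS* genes was not tested.

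**Figure D3:**
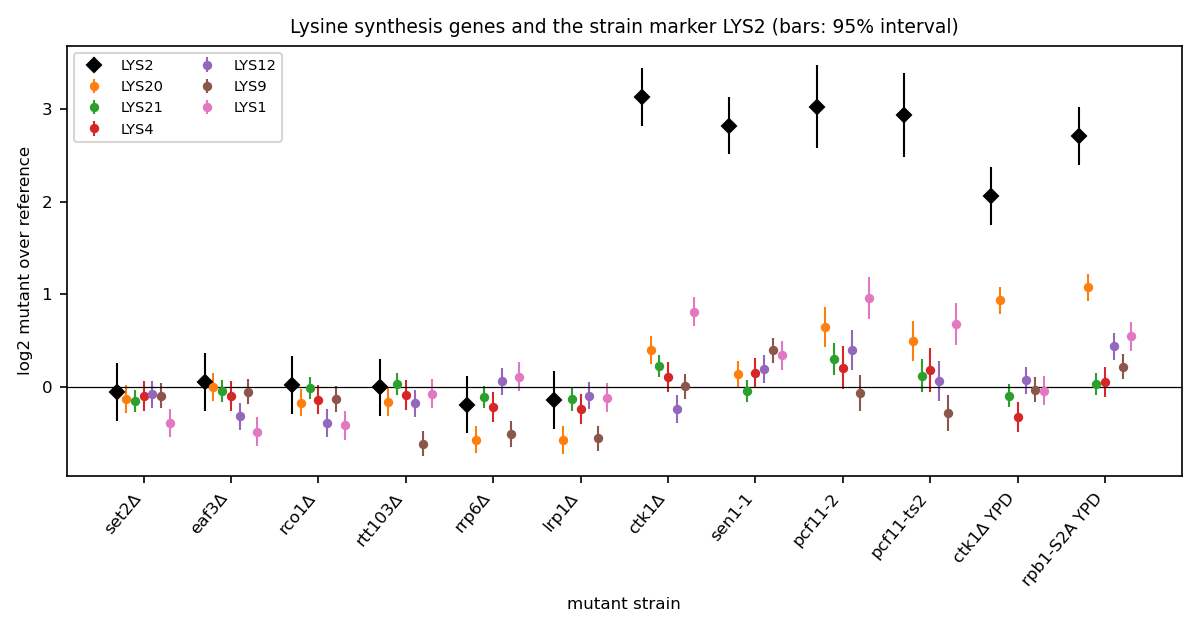
Fitted log2 mutant over reference (vertical axis) of *LYS2* (black diamonds) and the 6 other lysine genes (coloured circles) in the 12 profiles, with 95% intervals. *LYS2* lies between 2.06 and 3.13 in 6 profiles and near 0 in the other 6, while the other genes stay between −0.61 and 1.08.

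With the main processing no gene of aromatic amino acid synthesis changed in any profile. *TRP2* (anthranilate synthase) ranged from −0.33 to 0.08, *TRP3* (its partner subunit, which also carries a later activity) from −0.38 to 0.02, *TRP4* (anthranilate phosphoribosyltransferase) from −0.41 to 0.09, and *TRP5* (tryptophan synthase) from −0.23 to 0.42. All 4 stayed well inside the fold minimum throughout. In the shared shikimate pathway, *ARO1*, the pentafunctional enzyme, was highest in *pcf11-ts2* (0.60) and *ctk1*Δ in SC (0.50), and *ARO2*, chorismate synthase, was negative in all 12 profiles (−0.45 to −0.02). The isozymes that open this pathway, *ARO3* and *ARO4*, were both lowest in *rpb1-S2A* (−0.64 and −0.39), and *ARO4* was highest in *sen1-1* (0.44) and *rrp6*Δ (0.42). All 4 *ARO* genes were below 0 in *rpb1-S2A* with a limma adjusted p under 0.05, although none reached the fold minimum. At this p alone 30.4% of all features were lower in *rpb1-S2A* and 33.6% higher. With median centring in place of loess *ARO2* passed in *rpb1-S2A* (−0.77) and *pcf11-2* (−0.83).

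Among the genes of branched-chain synthesis, *LEU4* rose in the *pcf11* alleles. These strains also differed from the reference in the mating type genes, *MET17* and *LYS2*, which cannot be told apart from the mutations. *LEU4* encodes the main isopropylmalate synthase, the first enzyme of the leucine branch, and had log2 ratios of 0.99 on the array of *pcf11-2* and 0.81 on that of *pcf11-ts2*. The fitted rises were 1.91-fold (adjusted p = 3.82e-05) and 1.83-fold (adjusted p = 1.46e-04), and the latter did not pass with genes centred on their median over the profiles (0.72). In *ctk1*Δ in SC *LEU4* had 0.63 on both arrays, and in the other profiles its arrays were between −0.13 and 0.45. Its paralogue *LEU9* had −0.39 in *pcf11-2* and −0.08 in *pcf11-ts2* and was lowest in *rpb1-S2A* (−0.58), and the probes of such paralogues may share signal. *LEU1*, the isopropylmalate isomerase, ranged from −0.48 in *lrp1*Δ to 0.66 in *pcf11-2*. Leucine synthesis lacks *LEU2* in these strains, where the gene is deleted as a marker, and its log2 ratio stayed between −0.10 and 0.03.

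None of the 5 *ILV* genes changed with the main processing. The acetolactate synthase *ILV2* ranged from −0.05 to 0.45 and its regulatory subunit *ILV6* from −0.44 to 0.21. The reductoisomerase *ILV5* ranged from −0.36 to 0.38, the dehydratase *ILV3* from −0.72 to 0.14 and the threonine deaminase *ILV1* from −0.58 to 0.16. For *ILV1*, *ILV3*, *ILV5* and *ILV6* the lowest profile was *ctk1*Δ in YPD. With median centring in place of loess *ILV3* passed in this profile, at −0.95.

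The largest ratios of all 33 genes belonged to *BAT2*, the cytosolic branched-chain aminotransferase, which is known for a role in the breakdown of branched-chain amino acids. Its log2 ratio was 1.72 and 1.43 on the *ctk1*Δ arrays in YPD and 2.16 and 1.82 on those of *rpb1-S2A*. In SC it had 0.66 and 0.40 in *ctk1*Δ, 0.49 and 0.28 in *sen1-1*, 0.43 and 0.18 in *set2*Δ, 0.06 and 0.27 in *rrp6*Δ, 0.01 in *pcf11-2* and 0.33 in *pcf11-ts2*. The 8 arrays of *eaf3*Δ, *rco1*Δ, *rtt103*Δ and *lrp1*Δ were between −0.59 and 0.02. The YPD arrays, which held only *ctk1*Δ and *rpb1-S2A*, were thus all above every SC array. How many other features separate in this way was not counted, and the part of the medium was not tested. *BAT2* rose 2.98-fold in *ctk1*Δ in YPD (log2 1.57, standard error 0.10, limma adjusted p = 2.91e-08) and 3.97-fold in *rpb1-S2A* (log2 1.99, standard error 0.10, adjusted p = 2.29e-09). The mitochondrial aminotransferase *BAT1* had 0.04 and 0.22 in these 2 profiles and ranged from −0.41 to 0.30 over all 12.

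*PCL5*, the cyclin that targets Gcn4p, changed in more profiles than any other of the 33 genes and its fitted log2 ratio was positive in all 12. It had 1.08 and 1.18 on the arrays of *ctk1*Δ in SC, 1.06 and 0.88 in *sen1-1*, 1.11 in *pcf11-2* and 0.82 in *pcf11-ts2*. It had 0.50 and 0.94 in *ctk1*Δ in YPD and 0.59 and 0.93 in *rpb1-S2A*, with array b the higher in both. The other arrays had 0.17 and 0.56 in *set2*Δ, 0.03 and 0.12 in *eaf3*Δ, 0.39 and 0.36 in *rco1*Δ, 0.01 and 0.19 in *rtt103*Δ, 0.20 and 0.25 in *rrp6*Δ, and 0.32 and 0.35 in *lrp1*Δ. The 4 rises, all in SC, were between 1.86-fold (*pcf11-ts2*, limma adjusted p = 3.88e-04) and 2.18-fold (*ctk1*Δ, adjusted p = 3.00e-07). In *rpb1-S2A* the fitted 0.76 was just short of the fold minimum, and in *ctk1*Δ in YPD it was 0.72. The 6 profiles with 0.72 or more were those with a high *LYS2*, and the others had at most 0.37. Mutation and strain background cannot be told apart here, and the part of the background was not tested. The reference channel of *PCL5* had a range of 1.13 over the profiles, wider than for 83.5% of all features, lowest on the *rco1*Δ arrays (−0.78) and highest on those of *ctk1*Δ in YPD (0.35). With every gene centred on its median over the 12 profiles none of the 4 rises of *PCL5* passed, with log2 values of 0.35 to 0.58.

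*GCN4* itself changed in no profile. Its log2 ratio was highest in *rpb1-S2A* (0.71), *pcf11-2* (0.64) and *rrp6*Δ (0.57), and lowest in *rtt103*Δ (−0.08). On single arrays it reached 0.88 and 0.54 in *rpb1-S2A* and 0.50 and 0.65 in *rrp6*Δ. In *ctk1*Δ in SC, where *PCL5*, *HIS4* and *HIS5* rose, *GCN4* had 0.28 and 0.31. *ICY2* (*ATG41*), a gene with a role in autophagy, had 0.73 and 0.89 on the *ctk1*Δ arrays in SC and −0.22 and 0.06 on those in YPD. It had 0.68 in *pcf11-2*, 0.47 in *pcf11-ts2*, 0.30 and 0.40 in *rpb1-S2A*, 0.13 and 0.20 in *rrp6*Δ, 0.12 and −0.01 in *sen1-1*, and −0.17 and −0.01 in *lrp1*Δ. The 8 arrays of *set2*Δ, *eaf3*Δ, *rco1*Δ and *rtt103*Δ were all negative, from −0.65 to −0.14. The rise in *ctk1*Δ in SC was 1.75-fold (log2 0.81, standard error 0.07, limma adjusted p = 1.04e-06).

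The profile of *ctk1*Δ was made in both media, so that the same deletion could be compared between them. In *ctk1*Δ in SC the median log2 ratio of the 33 genes was 0.20, with 18 genes higher and 5 lower at an adjusted p under 0.05 whatever the fold (32.8% and 28.5% of all features). In *ctk1*Δ in YPD the median was −0.17, with 3 genes higher and 17 lower at this p (30.8% and 27.6% of all features). The contrast of the 2 profiles in limma had a negative log2 value for 29 of the 33 genes, where 50.4% of all features were negative. Its median was −0.36 over the 33 genes and −0.002 over all features, and it was between −0.48 and −0.32 under the other normalizations tried and without single arrays of either profile. At an adjusted p under 0.05 alone, 19 genes were lower and 3 higher in YPD, where 7.91% of all features were lower and 8.61% higher.

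With the fold minimum, 4 of the 33 genes were lower in YPD (1.22% of all features) and 1 was higher (1.52%). *HIS5* was lower by a log2 value of −1.23 (95% interval −1.42 to −1.04, limma adjusted p = 1.34e-06), *HIS4* by −1.02 (adjusted p = 2.01e-05), *ICY2* by −0.89 (adjusted p = 1.31e-04) and *LYS1* by −0.85 (adjusted p = 1.38e-04). *BAT2* was higher by 1.05 (95% interval 0.75 to 1.34, adjusted p = 2.59e-04). Without array a of *ctk1*Δ in YPD, *LYS1* no longer passed, at −0.67. The ratio of *LYS2* was also lower in YPD, by −1.07, where the reference channel differed by 0.80 and the mutant channel by −0.28.

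The shift to lower values reached all 3 *LEU* genes (−0.62 to −0.48) and all 5 *ILV* genes (−0.58 to −0.32), of which 3 and 4 had an adjusted p under 0.05. Of the shared aromatic genes *ARO1* and *ARO3* were lower by −0.58 and −0.63, while *ARO2* had 0.03 (95% interval −0.16 to 0.22). The *TRP* genes had −0.48 to −0.14, and 1 of 4, *TRP4*, had an adjusted p under 0.05. In the lysine pathway the genes went both ways, with *LYS4* at −0.43 and *LYS21* at −0.32 but *LYS20* at 0.53 and *LYS12* at 0.31. *GCN4* had −0.19 (95% interval −0.54 to 0.17) and *PCL5* −0.41 (−0.69 to −0.14).

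**Figure D4:**
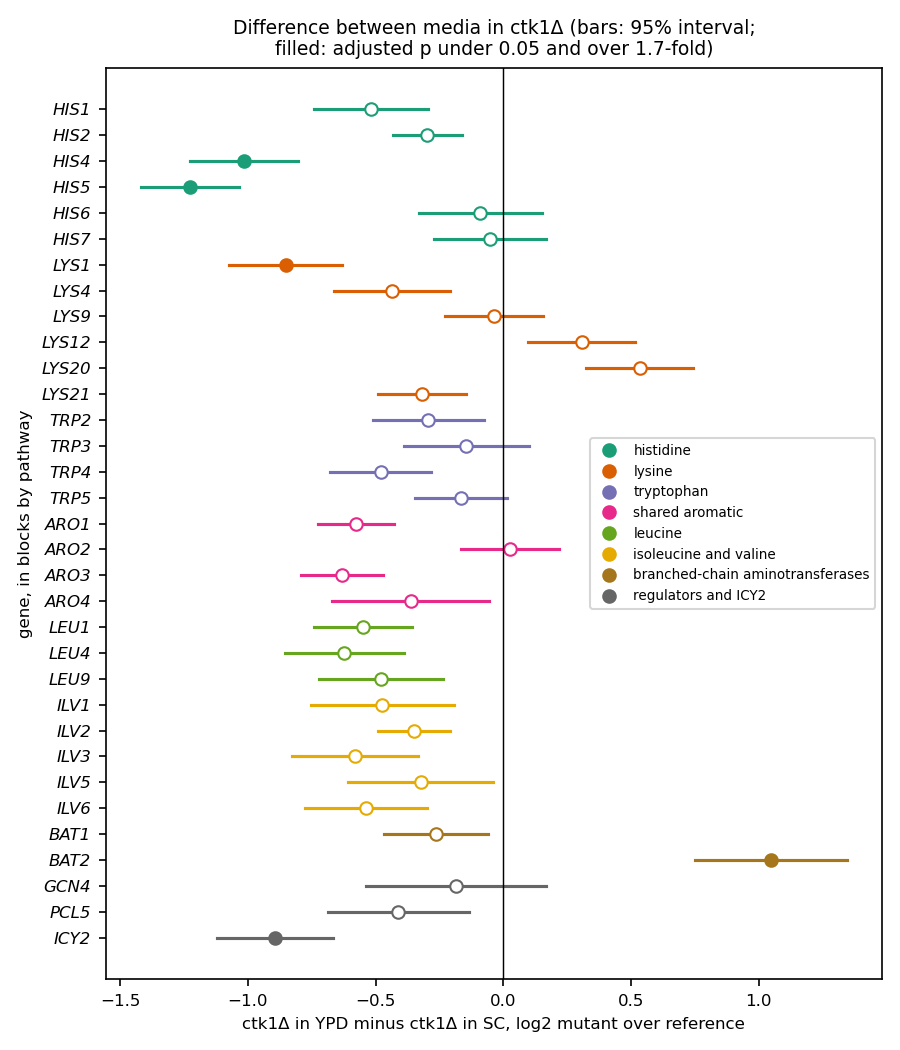
Difference of the log2 ratio between *ctk1*Δ in YPD and *ctk1*Δ in SC (horizontal axis) for each of the 33 genes, with 95% intervals, coloured by pathway and filled for the 5 genes that passed. All but 4 genes lie left of 0, from *HIS5* at −1.23, with *BAT2* alone beyond 1 on the right.

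Each ratio holds a mutant and a reference signal, so the 2 channels were also set side by side, each centred on its own median. In the mutant channel 28 of the 33 genes had a lower log2 signal in YPD than in SC, with a median difference of −0.40. In the reference channel 14 of the 33 were lower and the median difference was 0.07. For *BAT2* the mutant channel was higher by 1.40 and the reference channel by 0.43. *HIS5* and *LYS1* were lower in the mutant channel by −0.96 and −0.77 and differed by 0.27 and 0.07 in the reference. For *HIS4* the larger part lay in the reference, at 0.71 against −0.34 in the mutant channel, where the SD of the reference difference over all features was 0.29. *LEU1* was lower in both channels, by −1.29 and −0.67, as was *LEU4*, by −1.07 and −0.39. Medium, the extraction protocol of the mutant and that of the reference all changed together between these arrays and cannot be told apart.

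**Figure D5:**
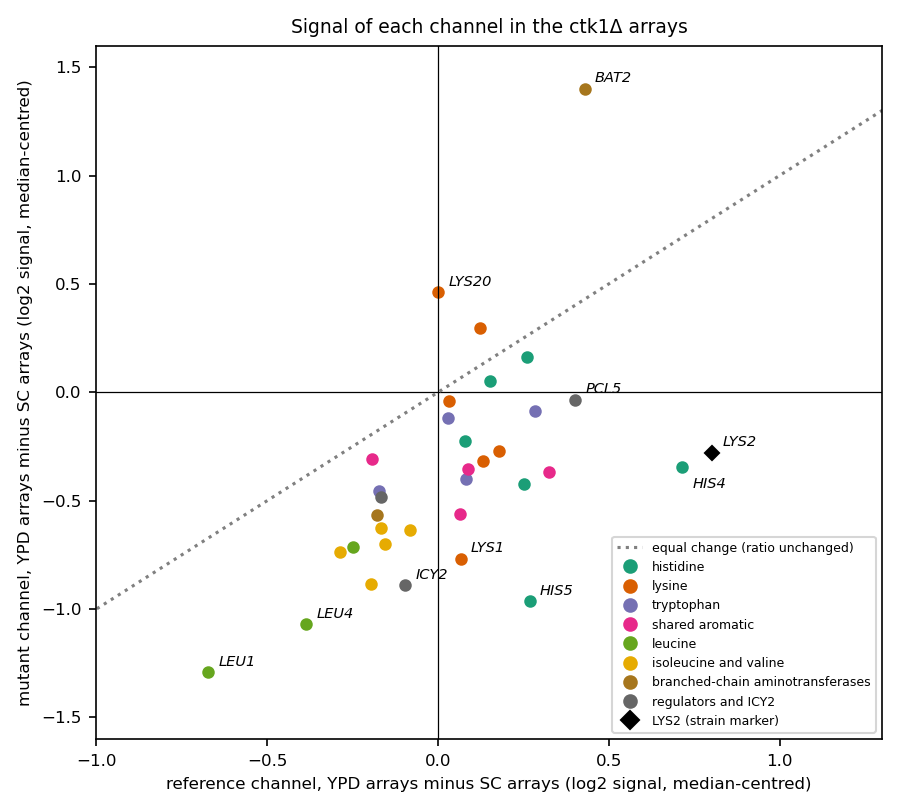
Difference between the YPD and SC arrays of *ctk1*Δ in the log2 signal of the reference channel (horizontal axis) and of the mutant channel (vertical axis), each centred on its median, for the 34 genes. Most points lie below the dotted line of equal change, *BAT2* lies far above it, and *HIS4* and *LYS2* lie far to the right (0.71 and 0.80).

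In YPD, *rpb1-S2A* and *ctk1*Δ, which lack the Ser2 residues and the Ser2 kinase, respectively, were compared directly. None of the 33 genes passed both thresholds in either direction, where 0.549% of all features were higher and 1.43% lower in *rpb1-S2A*. In limma 18 of the 33 had an unadjusted p under 0.05, and at an adjusted p under 0.05 alone 13 were higher in *rpb1-S2A* and 0 lower (4.63% and 8.3% of all features). The median difference was 0.19 and 27 of the 33 values were positive. The highest were *HIS4* at 0.66 (95% interval 0.44 to 0.87), *HIS5* at 0.63, *LEU1* at 0.62, *GCN4* at 0.60, *LYS1* at 0.59 and *ILV3* at 0.54. *BAT2* differed by 0.41 (0.12 to 0.71, adjusted p = 0.0683), *LYS20* by 0.14 (−0.07 to 0.35) and *PCL5* by 0.04 (−0.23 to 0.32). Without array b of *rpb1-S2A*, which leaves the same pair of extraction protocols in both strains, the median was 0.15 and 0 genes passed. The strains also differed in the mating type genes and *MET17*, and these differences and the mutations cannot be told apart.

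Between *sen1-1* and *ctk1*Δ in SC, 1 of the 33 genes differed with the fold minimum, and it was lower in *sen1-1* (3.88% of all features lower, 3.53% higher). This was *HIS4*, with a log2 difference of −1.53 (95% interval −1.74 to −1.32, adjusted p = 1.58e-07), whose reference channel was 0.12 on the *sen1-1* arrays and 0.87 on those of *ctk1*Δ. At an adjusted p under 0.05 alone 13 genes were lower in *sen1-1* and 3 higher (20.4% and 21.4% of all features). The lower ones included *ICY2* (−0.75), *HIS5* (−0.60), *HIS1* (−0.51) and all 3 *LEU* genes (−0.49 to −0.46), and the higher ones were *LYS12* (0.43), *LYS9* (0.39) and *HIS2* (0.31). *PCL5* differed by −0.16 (−0.43 to 0.12) between the 2 strains. *ICY2* passed the fold minimum without array a of *sen1-1*, at −0.91. The reference extraction protocol and the mating type differed along with the mutation and cannot be told apart from it.

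Other genes of the same pathways were measured for comparison. Of 10 listed, *ARO9*, an aromatic aminotransferase of amino acid breakdown, rose in both YPD profiles (1.34 in *ctk1*Δ and 1.26 in *rpb1-S2A*) and in both *pcf11* alleles (1.02 and 0.87). *ARO10*, a decarboxylase of the same breakdown route, rose in *ctk1*Δ in YPD (1.33), *rpb1-S2A* (1.65), *ctk1*Δ in SC (0.82) and *pcf11-2* (0.86). *PHA2*, prephenate dehydratase of phenylalanine synthesis, fell in *pcf11-2* (−1.24), and the remaining 7 genes of this list changed in no profile. Of all features 6.79% were higher in *ctk1*Δ in YPD, 7.23% in *rpb1-S2A*, 7.28% in *ctk1*Δ in SC, 5.54% in *pcf11-2* and 3.17% in *pcf11-ts2*. Of 11 regulators, only *LYS14*, the activator of the lysine genes, changed. It fell in *ctk1*Δ in YPD (−0.80) and *rpb1-S2A* (−0.79), the profiles in which *LYS20* rose, where 2.7% and 5.16% of all features were lower.

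Of 19 measured genes of other amino acid pathways, 4 were lower in YPD than in SC in *ctk1*Δ and 0 higher (1.22% and 1.52% of all features). They were *ARG1* (−2.05), *ARG4* (−1.15) and *ARG3* (−0.77) of arginine synthesis and *GLT1*, glutamate synthase, which had risen in *rrp6*Δ (0.85). The median of the 19 genes in this contrast was −0.20. *ARG1* fell in *ctk1*Δ in YPD (−1.69), and *ARG3* fell in *eaf3*Δ, *rtt103*Δ, *sen1-1* and both YPD profiles (−1.14 to −0.81). *CPA1*, of carbamoyl phosphate synthesis, rose in *ctk1*Δ in SC (0.90), *pcf11-2* (1.33) and *rpb1-S2A* (1.35), and *GDH1*, a glutamate dehydrogenase, rose in *pcf11-2* (1.41), *pcf11-ts2* (1.36) and *rpb1-S2A* (0.91). *PRO2*, of proline synthesis, fell in *ctk1*Δ in both media (−1.15 and −1.10) and in *rpb1-S2A* (−1.43).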

How the data were processed

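For 22 arrays the authors deposited unnormalized spot and background intensities from the scanner. They also deposited log2 ratios, normalized and adjusted for the bias of the dyes, and the submitters' processing notes name limma (2.12.0 for 6 arrays, no version for 16). The 6 columns of these ratios that ran against the scanner values were turned round and used as an alternative only. Their scale and centring are not stated beyond this. All columns were mapped to a sample. Of 6388 probes of gene spots, 5326 had 1 symbol and 1062 none, and 57 symbols were updated with the R64 gene table. The members and lists were chosen with earlier results of these data known.

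Intensities were corrected with limma's normexp method (offset 50) and normalized within arrays by loess (span 0.3, control spots at weight 0) with limma 3.58.1 in R 4.3.3. Spots of a probe and probes of a gene were averaged. All 22 arrays entered 1 limma fit with a coefficient per profile and a term for the dye of the mutant, which is also the replicate letter (9 residual and 3.70 prior degrees of freedom). Differences of replicate arrays (a minus b) correlated between profiles with r from −0.361 to 0.763, and the dye term was kept because the methods correct dye bias per gene. Fitted values of the *pcf11* profiles, with 1 array, include this correction. Ratios were tested against 0 and 3 contrasts between profiles were computed, with Benjamini-Hochberg adjustment over all 6373 features and intervals of 95%. The fit was tested on simulated data. Single-channel values are log2 signals centred on the median of the channel, averaged over a profile, and were not tested.

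Every member is named with its values or range, and values of every array are given for *LYS2* and for members changed in at least 3 profiles or in a contrast. Other listed genes are named where they changed in a profile, and *ARG4* was named after its value was seen. Sequences, coordinates and promoter motifs were not analysed here. Above background means over the local background by 2.6 of its SDs, and saturated means an intensity of at least 65000. Alternatives were the processed ratios, median centring without loess, no background subtraction, only features above background on every array, no dye term, each array left out, genes centred on their median over the 12 profiles, and SC arrays alone.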

Additional observations from a re-analysis of the deposited data

Results flagged for a closer look

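In *ctk1*Δ, the one mutation profiled in both media, 6 of the 34 genes had a log2 ratio that differed between YPD and SC in the limma contrast with an adjusted p under 0.05 and more than 1.7-fold. Over all features 1.22% were lower in YPD and 1.52% higher with both thresholds. At this p alone, 22 of the 33 genes other than *LYS2* differed, where 7.91% of all features were lower and 8.61% higher. The differences (YPD minus SC) were −1.23 for *HIS5*, −1.02 for *HIS4*, −0.89 for *ICY2* and −0.85 for *LYS1*, with 1.05 for *BAT2* and −1.07 for the strain marker *LYS2*. For *HIS4* and *LYS2* the reference channel moved more than the mutant channel, by 0.71 and 0.80, and for the other 4 genes the mutant channel moved more. Extraction protocols changed together with the medium and cannot be told apart from it.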

How the results depend on the processing

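Of the counts of changed genes recomputed under each alternative, 145 stayed within 1.5 times the value reported and 11 did not. The 145 include profiles with 0 changes under every alternative, such as *set2*Δ. Of the single changes 247 kept their direction and threshold, 11 lost the threshold and 0 reversed. These tallies count a change once per alternative, include *LYS2*, and hold settings that could not move a log2 value. The background filter kept all 33 genes, and SC arrays alone left the values of 2-array profiles as they were. With each gene centred on its median over the 12 profiles, the count of changes fell from 18 to 10, with 3 in *ctk1*Δ in SC, 0 in *sen1-1*, 0 in *pcf11-ts2* and 2 in *rpb1-S2A*. This setting takes the same value from every ratio of a gene. A gene with 1 sign in all 12 profiles, such as *PCL5* or *HIS6*, thus has its largest ratios drawn toward 0. Beside *PCL5*, the changes lost were *HIS5* in *ctk1*Δ in SC (0.68), *LEU4* in *pcf11-ts2* (0.72), and *HIS4* (0.71) and *HIS6* (−0.48) in *rpb1-S2A*. Median centring without loess gave 22 changes, with *HIS4* lost in *rpb1-S2A*. Gained there were *ARO2* in *pcf11-2* (−0.83) and *rpb1-S2A* (−0.77) and *ILV3* in *ctk1*Δ in YPD (−0.95). *LYS1* in *pcf11-ts2* (0.77) and *PCL5* in *rpb1-S2A* (0.82) were gained as well. Leaving out single arrays gave 2 to 4 changed genes in *ctk1*Δ in YPD (4 without array a, with *HIS6* and *PCL5* gained), 0 to 1 in the contrast of *rpb1-S2A* with *ctk1*Δ in YPD (*HIS4*, *LYS1* or *ILV3* in turn) and 1 to 2 in that of *sen1-1* with *ctk1*Δ in SC. Without background subtraction the last count was 2, with *ICY2* gained. With no replicate block, that is without the dye term, the contrast of *ctk1*Δ between media still had 5 changed genes and no call of a member changed. In profiles with both dyes the log2 values cannot differ in this setting, so only their standard errors were open to change. Median centring without loess turned the median of the 33 genes from 0.06 to −0.15 in *sen1-1* and from 0.10 to −0.05 in *rpb1-S2A*, so no direction is given for these lists. Precision is limited by 2 arrays a profile, with standard errors of 0.04 to 0.12, or 0.06 to 0.17 with 1 array. The lowest mutant signal of the 33 genes was 111, of *ICY2* on 1 array, and at such signals the offset draws ratios toward 0.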
